A study of Saccharomyces cerevisiae with 12 samples.

Results

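The 10 genes described here make, recycle, use or export glutathione in budding yeast: GSH1, GSH2, GLR1, GTT1, GTT2, GPX1, GPX2, HYR1, GEX1 and GEX2. They were taken by name from the annotation of a 2-colour Agilent expression array, and all 10 were found, each with 1 probe, among 5594 genes. The arrays set the ∆zta1 strain, which lacks ZTA1 (YBR046C), against its wild type FY834α, both in exponential growth in YPD medium. ZTA1 encodes zeta-crystallin, a quinone oxidoreductase. There were 3 pairs of cultures that received hydrogen peroxide (H2O2, 10 mM, 30 min) and 3 pairs that did not, and every pair was run as a dye swap on 2 arrays, giving 12 arrays in all. Every value is a log2 ratio of ∆zta1 over wild type, averaged over the 2 arrays of a pair, so no level in a single strain and no response to peroxide can be read from it. In a whole culture, fewer cells with a transcript and less transcript per cell cannot be told apart.

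Glutathione is a tripeptide of glutamate, cysteine and glycine that serves as the main small thiol of the yeast cell. It is built by a pair of ligases, donates electrons to peroxidases and glutaredoxins, is coupled to electrophiles by transferases, and is restored from its disulfide by an NADPH-dependent reductase. It can also be moved across membranes in exchange for protons. Several genes of this system are targets of the transcription factor Yap1, which peroxide activates through the peroxidase encoded by HYR1. The study asked how yeast without ZTA1 differs in its transcripts with and without this oxidative stress.

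The labels held up in the targeted gene: ZTA1 lay between -6.34 and -3.21 on the log2 scale on all 12 arrays. Over both treatments, 16 of 5594 genes passed limma at a Benjamini-Hochberg adjusted p under 0.05, namely 4 higher and 12 lower. The column medians lay between -0.0172 and 0.0165, and untreated replicate 2 had the widest spread across genes (SD 0.161, against 0.111 to 0.127 in the other pairs). None of 5 a-cell and 4 alpha-cell marker genes passed in either treatment or over both. Ratios do not show whether such markers were absent from both strains.

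Among the 10 glutathione genes, the exchangers stood lowest. Over both treatments, 7 of the 10 mean ratios lay within 0.1 of 0, beside 96.9% of all genes. GEX2 fell in ∆zta1 over both treatments by 0.21 on the log2 scale, and it was the only member to pass. GEX1 had a ratio of similar size, -0.15, and missed the threshold (limma adjusted p = 0.0629). The other 8 genes had mean ratios between -0.11 and 0.078, with no adjusted p below 0.469 in any comparison. The 1 called member of 10 stands beside 0.286% of all genes called over both treatments. An unadjusted p under 0.05 was reached by 4 members, against 9.46% of all genes. These were GEX1 and GEX2, with lower ratios, and GSH2 and GTT2, with higher ones. The 10 genes were chosen with earlier results of these data known, so the counts beside these shares are a description only.

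In either treatment alone no member passed limma's test. Under H2O2, 3 of 10 had an unadjusted p under 0.05, where 0.215% of all genes were called and 8.29% had such a p. In untreated cells, 2 of 10 did, where 0.197% were called and 3.65% had such a p. The median of the 10 ratios was -0.041 under H2O2 and -0.024 in untreated cells, beside -0.0023 and 0.00052 over all genes. Across all members, the 95% intervals from the fit reached from 0.795-fold to 1.14-fold of wild type in either treatment.

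**Figure D1:**
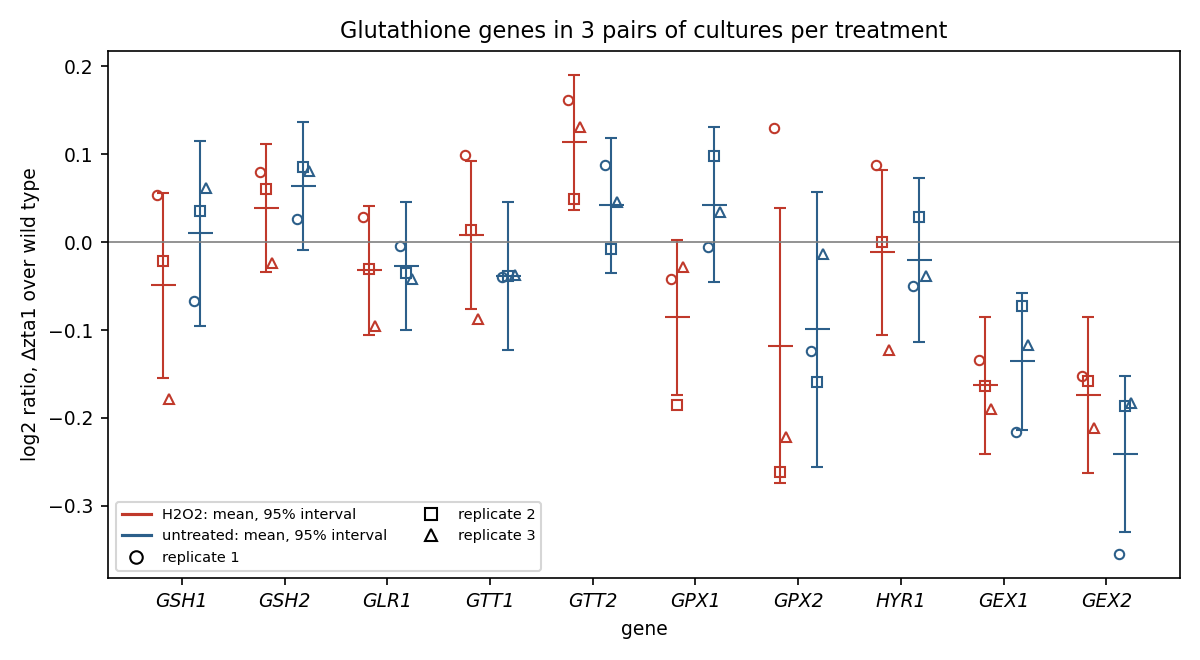
Log2 ratio of ∆zta1 over wild type (vertical axis) for each of the 10 glutathione genes, in the 3 H2O2 pairs (red) and the 3 untreated pairs (blue). Open symbols are pairs of cultures, horizontal ticks the means and bars the 95% intervals of the limma fit. All 12 symbols of GEX1 and GEX2 lie below 0, while those of each of the other 8 genes fall on both sides of it.

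GEX1 (YCL073C) and GEX2 (YKR106W) encode closely similar glutathione exchangers of the vacuolar and plasma membranes, which move glutathione against protons. GEX2 had log2 ratios of -0.15, -0.16 and -0.21 in the H2O2 pairs, against -0.35, -0.19 and -0.18 in the untreated pairs. Every pair was below 0, untreated replicate 1 was the lowest, and the treatments overlapped. Over both treatments GEX2 was 1.15-fold lower in ∆zta1, a log2 ratio of -0.21 ± 0.028 (SE, n = 6 pairs, limma adjusted p = 0.0184), the 28th lowest mean ratio of 5594 genes. Its ratio was -0.17 ± 0.032 under H2O2 (SD, n = 3 pairs, limma adjusted p = 0.423) and -0.24 ± 0.098 in untreated cells (SD, n = 3 pairs, limma adjusted p = 0.0916).

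The call of GEX2 needed nearly all pairs, while its size changed little. Without 1 pair the ratio stayed between -0.22 and -0.18. The adjusted p in limma was 0.0823, 0.106 and 0.132 without H2O2 replicates 1, 2 and 3, and 0.0599 without untreated replicate 3. It stayed below the threshold without untreated replicate 1 (0.0363) and without untreated replicate 2 (0.0106).

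GEX1 had log2 ratios of -0.13, -0.16 and -0.19 in the H2O2 pairs, against -0.22, -0.073 and -0.12 in the untreated pairs. All 6 pairs were again below 0, and the treatments overlapped. The mean was -0.16 ± 0.028 under H2O2 and -0.14 ± 0.074 in untreated cells (SD, n = 3 pairs each), with limma adjusted p = 0.316 and 0.885. Over both treatments the ratio was -0.15 ± 0.024 (SE, n = 6 pairs), with a 95% interval from -0.20 to -0.094. Leaving out untreated replicate 2, where GEX1 was closest to 0, brought the limma adjusted p to 0.0288 at a ratio of -0.16, and leaving out any other single pair raised it to between 0.174 and 0.288. The GEX genes were the only members below 0 in all 6 pairs, beside 3.74% of all genes, and no member was above 0 in all 6, beside 3.09%. Because the genes are so alike, a probe of one could report both transcripts, which was not tested.

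**Figure D2:**
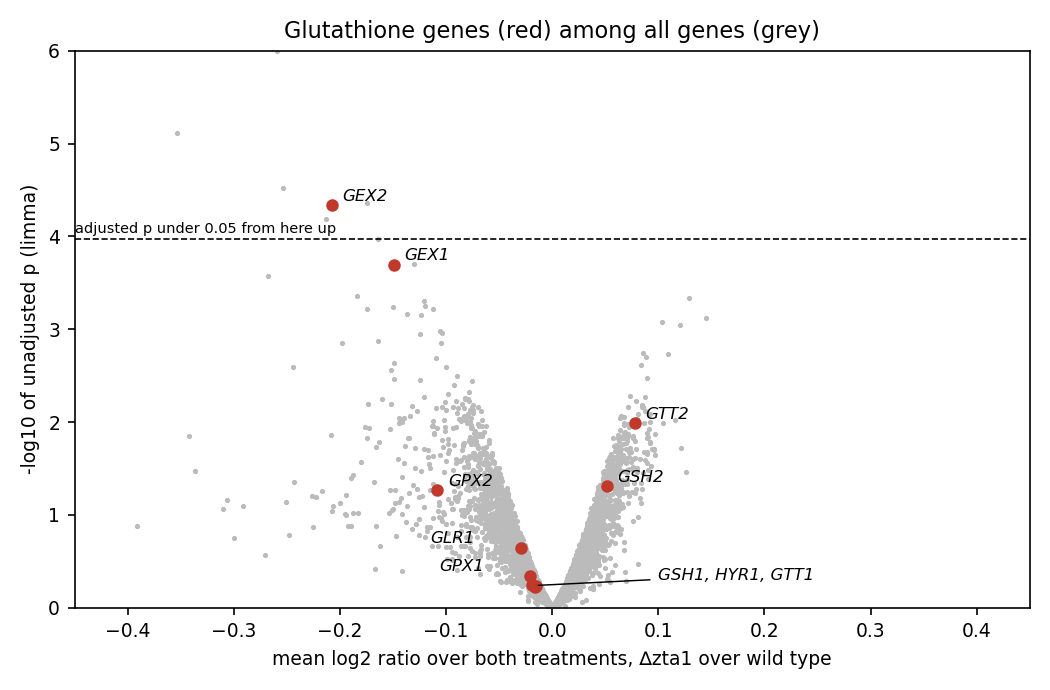
Mean log2 ratio over both treatments (horizontal axis) and -log10 of limma's unadjusted p (vertical axis) for all genes (grey) and the 10 glutathione genes (red), with 9 genes beyond the axes not drawn. GEX2 is the only red point above the dashed threshold, GEX1 lies just under it, and the others sit in the cloud of all genes.

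The exchangers also differed in how far their ratios depended on the dye. For GEX2 the mean was -0.19 over the 6 arrays with ∆zta1 in Cy5 and -0.22 over the 6 with ∆zta1 in Cy3, and all 12 arrays were below 0. GEX1 averaged -0.24 where the mutant carried Cy5 and -0.056 where it carried Cy3. It was below 0 on 11 of 12 arrays, the exception being H2O2 replicate 1 with ∆zta1 in Cy3 (0.021). The ratio of GEX1 was thus low mainly in 1 orientation, and that of GEX2 in both. Of all genes, 26.1% had a larger difference between orientations than GEX1, and 87.3% a larger one than GEX2. The pair means that were tested average over both orientations.

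GEX1 is the first measured gene at the left end of chromosome III and GEX2 the last at the right end of chromosome XI, by gene order in RefSeq assembly R64. VBA3, next to GEX1 and related to vacuolar transporters of basic amino acids, had log2 ratios of -0.037, -0.26 and -0.0069 in the H2O2 pairs, against 0.015, 0.043 and 0.022 in the untreated pairs. VBA5, a relative of VBA3 that lies next to GEX2, had -0.0080, -0.23 and -0.091 in the H2O2 pairs, against -0.093, -0.018 and 0.038 in the untreated pairs. H2O2 replicate 2 was the lowest for both VBA genes and for YCL068C (-0.23), but for neither GEX gene. Over both treatments the ratios were -0.037 for VBA3, -0.065 for YCL068C, -0.067 for VBA5 and 0.048 for YKR104W, with limma adjusted p from 0.552 to 0.712. The difference between a GEX gene and its neighbours was not tested.

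**Figure D3:**
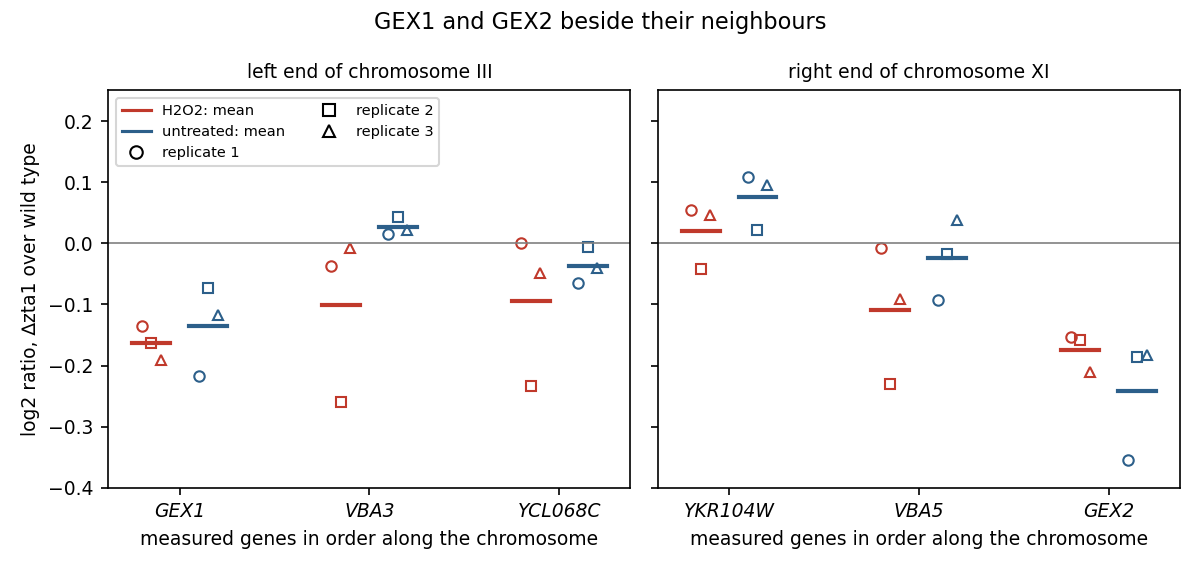
Log2 ratio of ∆zta1 over wild type (vertical axis) for GEX1, GEX2 and the nearest measured genes on their chromosome, in gene order (horizontal axis), with H2O2 pairs in red and untreated pairs in blue. Symbols are pairs and thick lines means of 3. GEX1 and GEX2 are below 0 in every pair, whereas VBA3, YCL068C and VBA5 are lowest in H2O2 replicate 2 and YKR104W is mostly above 0.

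The siderophore transporters ARN1, ARN2, SIT1 and ENB1, which import iron chelates, are the closest relatives of the GEX proteins in yeast. None of the 4 passed, although all had mean ratios below 0 in both treatments (median -0.046 under H2O2 and -0.14 in untreated cells). SIT1 had log2 ratios of -0.27, -0.052 and -0.013 in the H2O2 pairs, against -0.091, -0.47 and -0.081 in the untreated pairs. ENB1, the enterobactin transporter, had -0.14, -0.016 and -0.018 in the H2O2 pairs, against -0.070, -0.46 and -0.070 in the untreated pairs. Untreated replicate 2 was by far the lowest pair for SIT1 and ENB1, and it was not the lowest for GEX1 or GEX2. SIT1 and ENB1 were below 0 in all 6 pairs, as GEX1 and GEX2 were, and ARN1 and ARN2 in 5 of 6. Over both treatments the ratios were -0.16 for SIT1 and -0.13 for ENB1 (limma adjusted p = 0.480 and 0.506). They were -0.041 for ARN1 and -0.054 for ARN2 (limma adjusted p = 0.676 and 0.607).

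Synthesis of glutathione begins with GSH1 (YJL101C), the gamma-glutamylcysteine synthetase that sets the rate of the pathway. It had log2 ratios of 0.054, -0.022 and -0.18 in the H2O2 pairs, against -0.067, 0.035 and 0.061 in the untreated pairs, with 3 pairs above and 3 below 0. The mean over both treatments was -0.019 ± 0.033 (SE, n = 6 pairs, limma adjusted p = 0.844). GSH2 (YOL049W), glutathione synthetase, joins glycine in the next step. Its ratios were 0.080, 0.061 and -0.024 in the H2O2 pairs, against 0.026, 0.086 and 0.081 in the untreated pairs. GSH2 was above 0 in 5 of 6 pairs, and H2O2 replicate 3 was the exception. Its mean of 0.052 ± 0.023 did not pass (SE, n = 6 pairs, limma adjusted p = 0.525). For both genes H2O2 replicate 3 was the lowest of the 6 pairs.

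GLR1 (YPL091W) encodes glutathione reductase, which returns the disulfide to glutathione at the expense of NADPH. Its log2 ratios were 0.029, -0.030 and -0.095 in the H2O2 pairs, against -0.0044, -0.035 and -0.042 in the untreated pairs. They were below 0 in 5 of 6 pairs, and the treatments overlapped. The mean of -0.030 ± 0.023 did not pass (SE, n = 6 pairs, limma adjusted p = 0.678), and its 95% interval ran from -0.081 to 0.022.

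The transferases, which couple glutathione to electrophiles, did not share a direction. GTT1 (YIR038C) had log2 ratios of 0.099, 0.014 and -0.087 in the H2O2 pairs, against -0.040, -0.038 and -0.037 in the untreated pairs. The untreated pairs were almost the same, and the H2O2 pairs lay on either side of them. GTT2 (YLL060C) had ratios of 0.16, 0.049 and 0.13 in the H2O2 pairs, against 0.088, -0.0079 and 0.046 in the untreated pairs. It was the highest member, above 0 in 5 of 6 pairs, and the treatments overlapped. Under H2O2 its mean was 0.11 ± 0.058 (SD, n = 3 pairs, limma adjusted p = 0.585), or 1.08-fold. Over both treatments the mean was 0.078 ± 0.024 (SE, n = 6 pairs, limma adjusted p = 0.469). The orientations gave nearly the same value, 0.075 where the mutant carried Cy5 and 0.081 where it carried Cy3.

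The peroxidases GPX1, GPX2 and HYR1 reduce hydroperoxides, including those of phospholipids, and HYR1 (also GPX3) is in addition the peroxide sensor that oxidises Yap1. GPX1 (YKL026C) had log2 ratios of -0.042, -0.19 and -0.028 in the H2O2 pairs, against -0.0051, 0.098 and 0.035 in the untreated pairs. All H2O2 pairs lay below all untreated pairs, and GPX1 was the only member whose treatments did not overlap. Of all genes, 2.88% had their H2O2 pairs all below, and 2.66% all above, their untreated pairs. The mean was -0.085 ± 0.087 under H2O2 and 0.043 ± 0.052 in untreated cells (SD, n = 3 pairs each). The difference of -0.13 ± 0.055 did not pass limma's test of the difference between the treatments (SE, unadjusted p = 0.0450, adjusted p = 0.999). Without H2O2 replicate 2, its lowest pair, the ratio under H2O2 was -0.035 and the difference -0.078. Without untreated replicate 2, its highest pair, the untreated ratio was 0.015 and the difference -0.10.

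GPX2 (YBR244W) had log2 ratios of 0.13, -0.26 and -0.22 in the H2O2 pairs, against -0.12, -0.16 and -0.014 in the untreated pairs. H2O2 replicate 1 was high and the other 5 pairs were below 0, which made GPX2 the most variable member. Its mean over both treatments, -0.11 ± 0.049, did not pass (SE, n = 6 pairs, limma adjusted p = 0.532), and its SE stands beside a median of 0.025 over all genes. HYR1 (YIR037W) had ratios of 0.088, -0.00014 and -0.12 in the H2O2 pairs, against -0.050, 0.028 and -0.039 in the untreated pairs. These lay on both sides of 0 in either treatment, around a mean of -0.016 ± 0.029 (SE, n = 6 pairs, limma adjusted p = 0.863).

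HYR1 showed the largest difference between dye orientations of the 10 genes. With ∆zta1 in Cy5 its 6 arrays ranged from -0.0025 to 0.29 (mean 0.15), and with ∆zta1 in Cy3 they ranged from -0.24 to -0.11 (mean -0.18). The arrays of the 2 orientations did not overlap, and 6.22% of all genes had a larger difference between orientations. GSH2 averaged 0.16 where the mutant carried Cy5 and -0.061 where it carried Cy3. GPX2 averaged -0.21 in the Cy5 orientation and -0.011 in the Cy3 orientation. Over the members the median size of this difference was 0.113, close to the 0.107 of all genes. A dye effect cancels in the mean of a pair.

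**Figure D4:**
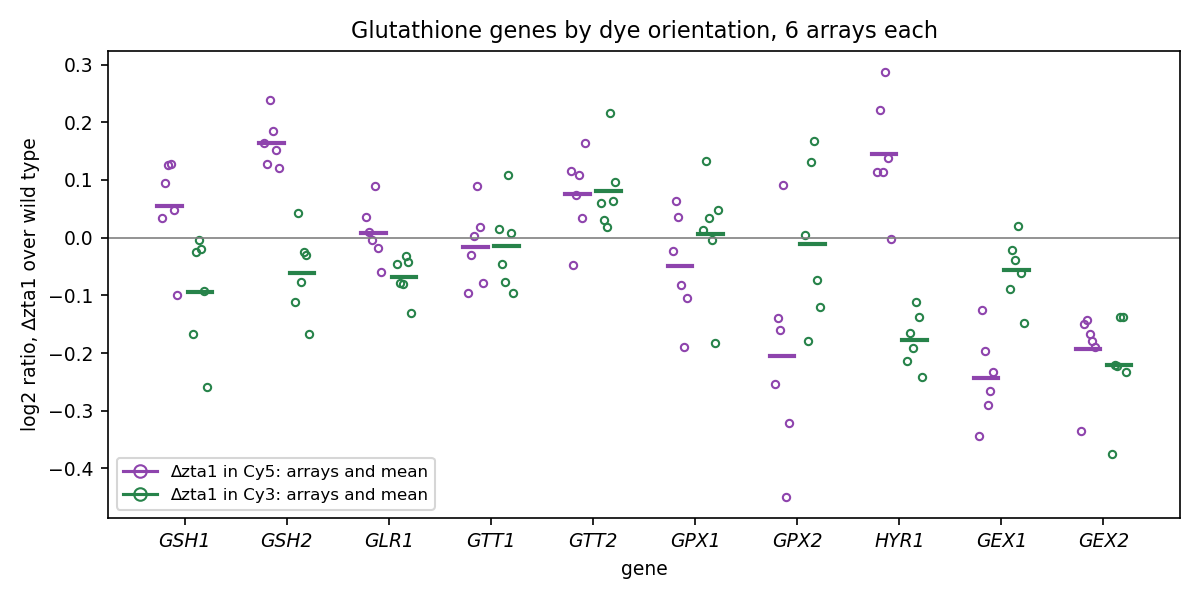
Log2 ratio of ∆zta1 over wild type (vertical axis) on single arrays for each glutathione gene, for the 6 arrays whose mutant sample carried Cy5 (purple) and the 6 whose mutant sample carried Cy3 (green), and their means as bars. The orientations separate fully for HYR1 (means 0.15 and -0.18) and GSH2 (0.16 and -0.061), and they nearly coincide for GEX2, GTT1 and GTT2.

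The pairs differed in how the members sat as a group. In H2O2 replicate 1 the median of the 10 ratios was 0.067, with 3 members below 0. In H2O2 replicate 3 the median was -0.11, with 9 members below 0, and in H2O2 replicate 2 it was -0.026. The untreated medians lay closer together, at -0.045, -0.021 and -0.026, while the median of all genes was between -0.0034 and 0.0023 in every pair. GSH1, GSH2, GLR1, GTT1 and HYR1 all had their lowest ratio in H2O2 replicate 3.

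No member passed limma's test of the difference between the treatments, in which 0% of all genes were called. GPX1 alone of the 10 had an unadjusted p under 0.05 there, beside 1.27% of all genes. The estimated differences, H2O2 minus untreated, ran from -0.13 for GPX1 to 0.072 for GTT2. GEX2 differed by 0.067, with a 95% interval from -0.058 to 0.19, and GEX1 by -0.027, with an interval from -0.14 to 0.083.

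Other genes that handle glutathione, genes of cysteine metabolism, their regulators and the siderophore transporters were compared in the same fit. The 41 genes of these lists included none that passed in either treatment, over both treatments or in the difference between them. Of the 41, 7 had an unadjusted p under 0.05 over both treatments, beside 9.46% of all genes, and the median ratio was -0.025, beside -0.0017 for all genes. All 8 glutaredoxins, which use glutathione to reduce protein disulfides, had ratios below 0 under H2O2 (median -0.050), and 6 of 8 did in untreated cells (median -0.013). Of all 41 listed genes 31 were below 0 under H2O2 and 28 in untreated cells, beside 52.1% and 49.4% of all genes. GRX7, a glutaredoxin of the early secretory pathway, had log2 ratios of -0.21, -0.087 and -0.088 in the H2O2 pairs, against -0.032, -0.058 and -0.079 in the untreated pairs. It was below 0 in all 6 pairs and was not called (mean -0.092 ± 0.024, SE, limma adjusted p = 0.423). GRX2, the main dithiol glutaredoxin, and GRX8 had means of -0.065 and -0.037 over both treatments.

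Genes that take glutathione apart or carry it showed no common direction. DUG3, a subunit of the cytosolic glutathione-degrading complex, was above 0 in all 6 pairs (mean 0.047 ± 0.024, SE, limma adjusted p = 0.576). DUG1 had a mean of 0.022 and ECM38, the gamma-glutamyl transpeptidase, one of -0.021. OPT1, the high-affinity importer of glutathione, had log2 ratios of -0.23, -0.19 and -0.034 in the H2O2 pairs, against -0.033, 0.14 and -0.081 in the untreated pairs. Its treatments overlapped and its mean of -0.070 did not pass (limma adjusted p = 0.576). The vacuolar carriers YCF1 (0.0021) and BPT1 (0.036) lay near 0, as did the glyoxalase genes GLO1 (-0.0081), GLO2 (-0.031) and GLO4 (0.029). The omega-class transferases GTO1, GTO3 and ECM4 had means of -0.047, -0.035 and -0.036.

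Among the listed genes of cysteine metabolism and the listed regulators, STR2, MET28, MET4 and CBF1 had their lowest value in untreated replicate 2. That value was -0.20 in MET4 and -0.056 in CBF1. In STR2, cystathionine gamma-synthase, the log2 ratios were 0.072, -0.063 and -0.046 in the H2O2 pairs, against 0.029, -0.70 and -0.19 in the untreated pairs. STR3, cystathionine beta-lyase, was below 0 in all 6 pairs (mean -0.11 ± 0.034, SE, limma adjusted p = 0.469), and so was MET28, a cofactor of the sulfur regulator Met4 (mean -0.12 ± 0.044, SE, limma adjusted p = 0.490). The lowest pair of MET28 lay at -0.36. CYS4, cystathionine beta-synthase, had a mean of -0.065, and the zinc finger regulators MET31 and MET32 had means of 0.047 and -0.048.

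**Figure D5:**
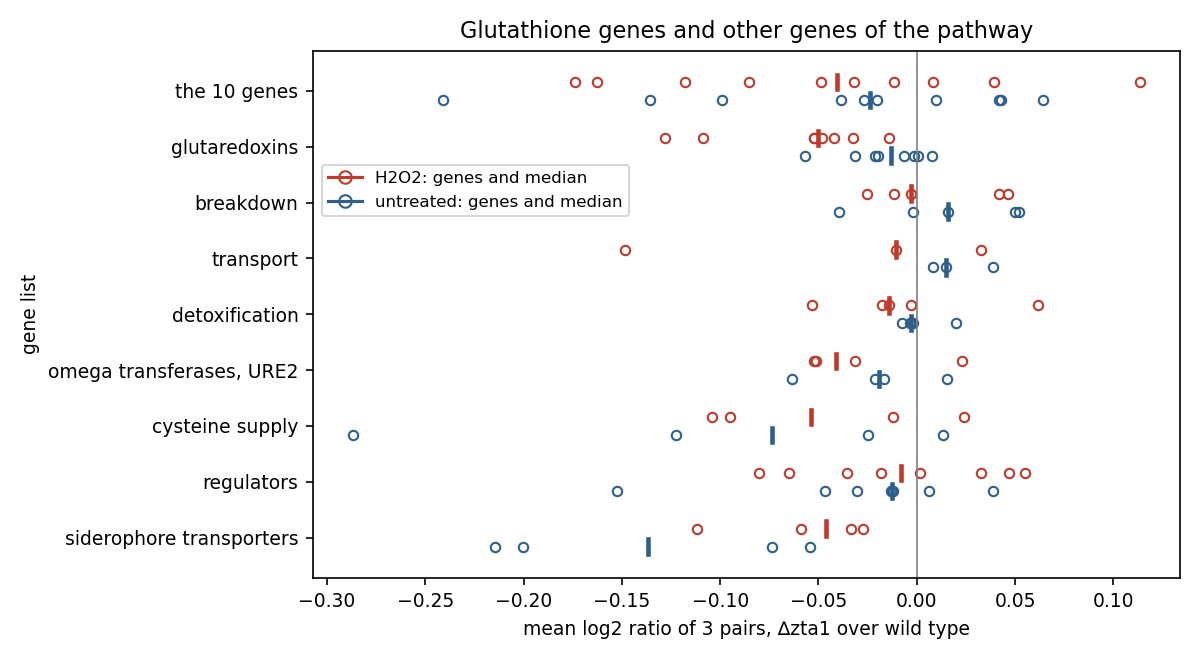
Mean log2 ratio of ∆zta1 over wild type in 3 H2O2 pairs (red) and 3 untreated pairs (blue) on the horizontal axis, for the 10 glutathione genes and for the other gene lists of the pathway (rows). Circles are genes and thick lines medians. The row of cysteine supply also holds STR2, which uses cysteine, and STR3, cystathionine beta-lyase. The 10 genes spread from -0.24 to 0.11, the glutaredoxins are all below 0 under H2O2, and the siderophore transporters have their lowest values in untreated cells.

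The genes whose 6 pair ratios followed GEX2 most closely were RRT2, YLR419W and KIN2, with Pearson correlations of 0.979, 0.973 and 0.963 over 6 pairs. Of 5593 genes, 20 had a correlation over 0.9 with it. The 3 genes shared their lowest value with GEX2 in untreated replicate 1, but not its level, since their mean ratios were -0.0013, 0.052 and 0.048. With 6 points that share their arrays, this order is a description only.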

How the data were processed

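The deposited table holds 1 log2 ratio for each of 6256 probes on 12 arrays. limma is the only tool in the submitters' processing notes, and background correction, normalisation and log base are not given in the sources used here. The base was read from limma's convention and the lowest value of -6.34. All columns were read as ∆zta1 over wild type, from the titles and from ZTA1. The table has no intensities, so signal over background is unknown and precision rests on the number of pairs and their spread. Replicate numbers follow the titles, which differ from the description for 1 array in each treatment.

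The platform annotation named 1 gene for 5620 probes and no gene for the other 636. Probes of a gene were averaged (25 genes), and so were the 2 arrays of a pair. limma 3.58.1 (lmFit, eBayes; R 4.3.3) was fitted to 6 pair means with 1 mean per treatment and 4 residual degrees of freedom, tests were 2-sided, and Benjamini-Hochberg adjustment covered 5594 genes at a threshold of 0.05. There were 4 comparisons: H2O2, untreated, their difference and their mean. The fit was tested on simulated data with changes planted in the H2O2 pairs only. Recovery was checked for changes much larger than the mean ratio of any member. RefSeq's R64 gene table gave names and gene order only.

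The members and lists were chosen with earlier results of these data known. Named are all members, up to 3 genes per list by smallest p over both treatments, the nearest genes beside GEX1 and GEX2, and 3 genes most like the member with the smallest p. ARN1, MET4 and CBF1 were added after their values were seen. Alternatives were median centring, scaling, single dye orientations, all 12 arrays in 1 fit, robust eBayes, single probes, added unnamed probes, 1 treatment per fit, a replicate block and 1 pair left out.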

Additional observations from a re-analysis of the deposited data

How the results depend on the processing

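Single dye orientations, in which a dye effect stays in the ratio, called many more genes. With ∆zta1 in Cy5 alone 929 genes passed under H2O2, 906 in untreated cells and 2063 over both treatments, of them 4, 3 and 5 members. With ∆zta1 in Cy3 alone the counts were 420, 562 and 1477, with 2 members each. HYR1 turned its sign over both treatments in Cy5 alone (0.15). The fit of all 12 arrays had a dye term and took the pair as a random block. In that fit 30 genes passed over both treatments, including 2 members (GEX1 and GEX2), and 1 member (GEX2) passed in untreated cells. Robust eBayes also called 2 members over both treatments. Leaving out 1 pair gave 6 to 13 genes under H2O2, 9 to 12 in untreated cells, 0 to 3 for the difference (3 without untreated replicate 2) and 11 to 22 over both treatments, with 0 to 2 members over both treatments. The lowest count under H2O2 came without H2O2 replicate 3, and the count was 7 without H2O2 replicate 1.

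Deviations of same-numbered pairs of the treatments correlated at -0.014, 0.031 and -0.27. These values cannot show whether cultures with the same number were grown together. With a replicate block 13 genes and 0 members passed over both treatments (GEX2 adjusted p = 0.0818), and 0 genes in the difference. Of 600 member values under the alternatives, 565 kept their sign and 30 passed the threshold. With 4 residual degrees of freedom, small differences could be missed. The intervals given were not adjusted for the number of genes tested, so they do not mark the smallest detectable difference. The intervals of GEX1 over both treatments (-0.20 to -0.094) and of GEX2 in untreated cells (-0.33 to -0.15) excluded 0. Neither was called there (limma adjusted p = 0.0629 and 0.0916), so differences of that size could also be missed.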

Other observations

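GEX1 and GEX2 were set beside the other outermost measured genes of the nuclear chromosomes, a comparison chosen after their values were seen. Of these 32 genes, 10 had a mean log2 ratio below 0 over both treatments, beside 51.8% of all genes, and the median was 0.040. Several of the 32 belong to the YRF1 family, with ratios from 0.054 (YRF1-2) to 0.096 (YRF1-8). Whether their probes report separate genes was not tested, so the 32 may not be independent. GEX2 was the third lowest (-0.21), after COS12 at the left end of chromosome VII (-1.30) and YIR042C at the right end of chromosome IX (-0.67). COS5 (-0.18), GEX1 (-0.15) and COS7 (-0.13) followed. These 6 genes were the only ones of the 32 below 0 in all 6 pairs, beside 3.74% of all genes. COS12, YIR042C and GEX2 passed limma's test, beside 0.286% of all genes, and COS5, GEX1 and COS7 did not (adjusted p = 0.122, 0.0629 and 0.0629).

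HYR1 and GTT1 lie side by side near the right end of chromosome IX, followed by YPS6, a cell surface protease of the yapsin family. YPS6, named after its values were seen, fell over both treatments (-0.17 ± 0.023, SE, n = 6 pairs, limma adjusted p = 0.0184), with log2 ratios of -0.16, -0.22 and -0.17 in the H2O2 pairs, against -0.22, -0.10 and -0.18 in the untreated pairs. HYR1 and GTT1 had mean ratios of -0.016 and -0.015 beside it.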
